A study of Mus musculus with 9 samples.

Results

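Both mutant genotypes with an underdeveloped fetal thymus were compared together with wild type, to ask which transcripts differ from wild type in the same way in both. Total RNA of thymic lobes from C57BL/6 embryos of day e13.5 was hybridised to 9 Clariom S mouse arrays, 3 per genotype. The Foxn1933/1089 embryos carried 2 different mutant alleles of Foxn1 (Foxn1 mutants), the Tbx1neo2/neo2 embryos carried the neo2 allele of Tbx1 on both chromosomes (Tbx1 mutants), and the remaining embryos were labelled wt. These are germline alleles, present in all cells of an embryo, and the labels name no further treatment. The labels do not say whether a sample was 1 embryo or a pool, so each p-value measures only the spread between these samples. Of 22142 transcript clusters, the units in which the array reports genes, 468 were members: all 6 mutant arrays lay on one side of all 3 wild type arrays, and the smaller genotype difference was at least 0.5 of the larger. There were 279 members with higher and 189 with lower values in the mutants.

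FOXN1 is the master transcription factor of thymic epithelium, which under its control matures, attracts lymphoid progenitors and supports T cell development. TBX1 is a T-box factor of the pharyngeal apparatus, where the pouches give rise to thymus and parathyroid. The early thymus is wrapped in a capsule of mesenchyme, largely from neural crest, that deposits collagens and proteoglycans and supplies growth factors to the epithelium. It descends into the chest beside vessels, heart and body cavity linings, so a dissected lobe can carry neighbouring tissue. In such bulk samples, fewer cells of a type and less RNA per cell cannot be told apart.

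Some arrays stood apart before genotype was considered. Prss16, which encodes a serine protease of the thymic cortex, read 4.24 on wild type replicate 1 and 4.45 on Foxn1 mutant replicate 2. It read 13.87 to 14.43 on the other 7 arrays, so this marker of the labelled tissue was at background on these 2. Psmb11, the thymic proteasome subunit, read 3.40 and 3.36 there and 9.52 to 10.66 elsewhere. Uty, a Y-linked gene, read 7.56, 8.84 and 8.66 on the wild type arrays, 2.47 to 3.71 on the 3 Foxn1 mutant arrays, and 8.47, 3.45 and 3.66 on the Tbx1 mutant arrays. All wild type arrays but only Tbx1 mutant replicate 1 among the mutants thus carried Y-linked RNA, and sex and genotype cannot be told apart except through that array. By the selection, that array lay on the mutant side for every member. The sample titles carry 3 date codes of unstated meaning (A, B and C here), each shared by wild type and mutant arrays. Code A holds both mutant genotypes, B only Foxn1 mutants and C only Tbx1 mutants, each beside a single wild type array. A difference within a code thus rests on 1 wild type array, and within B or C it is not a pooled difference. Array medians of the log2 values ranged from 5.10 to 5.20. The medians of the negative-control probes, taken as background, ranged from 4.27 to 4.94. With 3 arrays per genotype, the array number limits the precision.

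The targeted genes themselves did not separate mutants from wild type. In wild type the level of Foxn1 was 7.78, 10.35 and 10.01, while the Foxn1 mutants read 9.02, 8.73 and 9.67 and the Tbx1 mutants 8.88, 10.04 and 9.70. The pooled mutants differed from wild type by -0.04 ± 0.54 (SE; limma adjusted p = 1.00). The two-sided exact permutation p was 0.976 over the 84 splits of 9 arrays into 6 and 3. So few splits limit how small such a p can be. Tbx1 was dim, at 4.07 to 5.85, and above its array's negative-control median on 2 wild type and 5 mutant arrays. Its pooled difference was -0.05 ± 0.35 (SE; exact permutation p = 0.929). Where the probes lie relative to the altered parts of both genes was not stated, so these levels are no check of the genotypes.

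Across the whole array, no transcript cluster passed the test. With limma, 0 of 22142 clusters (0%) had an adjusted p under 0.05 between pooled mutants and wild type, and 950 had an unadjusted p under 0.05, 500 higher and 450 lower (4.29%). The lowest adjusted p was 0.242, for Chga, which encodes the secretory granule protein chromogranin A, for Cldn7, a tight-junction claudin, and for Pth, the parathyroid hormone gene. Those low p-values came mostly from the Tbx1 mutants. Chga read 10.51 to 13.65 in wild type and 10.17 to 11.10 with mutant Foxn1, but 3.68 to 4.78 with mutant Tbx1. None of these 3 is a member, since the mutants overlapped wild type or differed in size. Without wild type replicate 2, 4 clusters passed, all lower in the mutants: Chga, Pth, Nell1 and Hbq1a. Without Tbx1 mutant replicate 1, 3 Y-linked clusters passed, Uty and Kdm5d among them. Between the Foxn1 and the Tbx1 mutants, a comparison that uses no wild type array, 0 clusters passed (0%; lowest adjusted p = 0.0558, Pth) and 658 had an unadjusted p under 0.05.

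The members are therefore a description of separated values, not of tested differences. All 6 mutant arrays lay above wild type at 321 clusters (1.45% of all) and below it at 205 (0.926%). No permutation p was computed for these clusters, which were picked by that separation from the 22142 clusters examined. If all 9 arrays were interchangeable, the 84 splits into 6 and 3 would separate a share of 0.0238 of clusters, counting both directions. The 526 clusters seen are about that share, so their number alone is no evidence of a difference. With similar size required, 279 lay above (1.26%) and 189 below (0.854%). With each array centred on its median instead, the members were 462 above and 116 below, so the balance of directions depends on the scale. A wild type group without replicate 1 gave 805 and 798, without replicate 2 gave 649 and 631, and without replicate 3 gave 819 and 690. Leaving out Foxn1 mutant replicate 2 gave 320 below. Of any size ratio, 486 lay above without Foxn1 mutant replicate 3, and 311 lay below without Tbx1 mutant replicate 2.

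Over all clusters, 53% were higher in the pooled mutants, with a median difference of 0.02, and every list count is to be read against that share and against the 1.45% above and 0.926% below on one side. Most members differed little. The median absolute difference was 0.52 for the higher and 0.54 for the lower members, and 32 and 27 members differed by at least 1 log2 unit. The space between the nearest mutant and wild type arrays had a median of 0.09 and 0.08. It reached 0.5 for only 9 higher and 2 lower members, among them Upk3b (1.14), Dcn (1.11), Slitrk4 (1.00), Angptl7 (0.70), Phex (0.59), Lrrc17 (0.58) and Gpm6a (0.55) above and A4galt (0.71) and Tagap (0.70) below. At the other end, Atraid, Dele1 and Abt1 were separated by under 0.01, and Os9 and Lysmd3 overlapped by as little. On the size rule, Pip5k1c (ratio 0.50), Srrm1 (0.52) and Gdf6 (0.52) lay just inside, and Fzd7, Gng12 and Clic4 (each 0.48) just outside. Of the higher members, 132 had a mean level at or above the median of all clusters, and 109 never exceeded background on any array. Of the lower members, 111 reached that level and 42 never exceeded background. Gene symbols were given for 239 higher and 176 lower members.

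**Figure D1:**
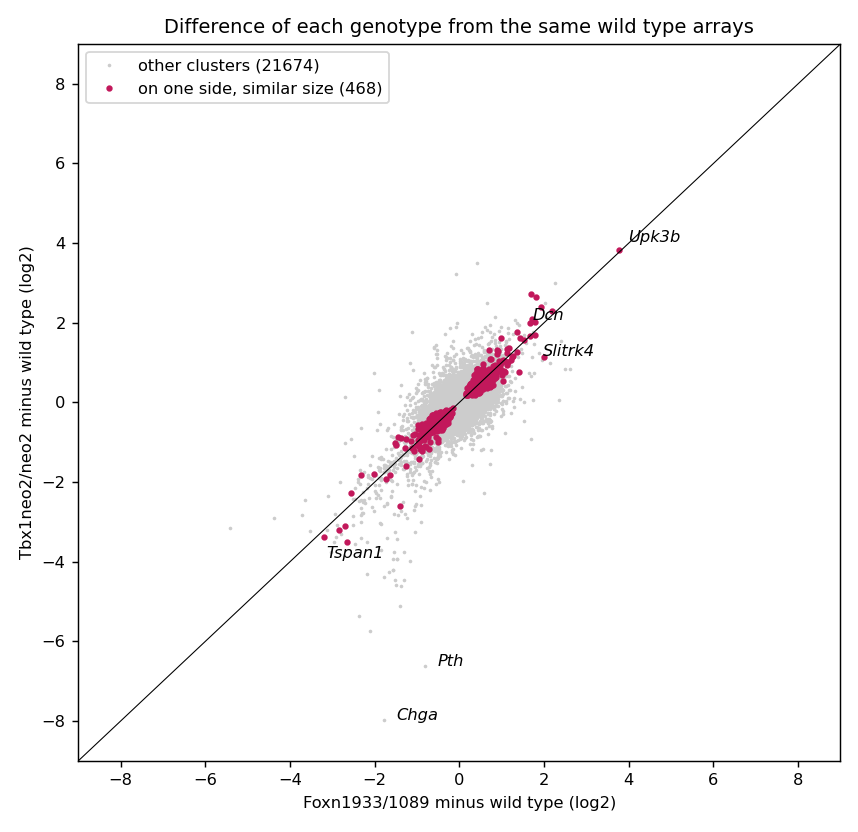
Each point is a transcript cluster, with the Foxn1 mutant difference from wild type on the x axis and the Tbx1 mutant difference on the y axis, both in log2 units, and the diagonal marks equal size. The 468 members, in colour, lie along the diagonal by the rule that chose them, out to Upk3b at 3.78 and 3.82, while Pth and Chga lie far below it. Both axes use the same wild type arrays, so a shared slope is built in.

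The 12 higher members with the largest differences and a level above background were, by size, Upk3b, Gpr50, Mgp, Myrf, Gpm6a, Upk1b, Epyc, Slitrk4, Loxl1, Dcn, Phex and Tbx18. Their pooled differences ran from 1.31 to 3.80, with SEs of 0.23 to 0.85. The limma adjusted p-values of these 12 ran from 0.41 to 1.00. Without the 2 arrays low in Prss16 the differences ran from 1.11 to 3.87. Within the date codes they ran from 0.58 to 2.49 (A), 1.27 to 5.60 (B) and 1.03 to 3.30 (C). Their sign within each code was fixed by the selection, since every code holds wild type and mutant arrays.

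Upk3b, a uroplakin family membrane protein found on mesothelium and bladder epithelium, had the largest difference of any member. It read 8.63, 5.62 and 9.63 in wild type, against 11.50, 12.78 and 10.94 in Foxn1 mutants and 11.48, 10.77 and 13.10 in Tbx1 mutants. The lowest mutant array thus lay 1.14 above the highest wild type array, and the pooled difference was 3.80 ± 0.85 (SE). Upk1b, a tetraspanin partner of the uroplakins, read 4.52 to 6.13 in wild type and 6.58 to 8.54 in the mutants. Gpm6a, a membrane glycoprotein best known from neurons, read 8.41, 8.92 and 9.61 in wild type and between 10.16 and 12.38 in the mutants. Both were highest on Tbx1 mutant replicate 3, as was Upk3b. Bnc1, a zinc finger factor of basal epithelia and mesothelium, read 5.66 to 7.16 against 7.25 to 8.34. These 4 genes belong to a list of 9 mesothelial markers drawn up after their values had been seen, so its counts only describe them. Of its 8 measured members, 7 were higher (median 1.21, against 53% and 0.02 over all clusters), these 4 on one side (1.45% of all clusters), and 0 passed limma. The list's mean level was 5.25 to 6.21 on the wild type arrays and 6.69 to 8.01 on the mutants. Msln, the mesothelin gene that defines this tissue, stayed at 4.14 to 4.70 in wild type and was above 5 in the mutants only on Foxn1 mutant replicate 1, at 7.39. Wt1, a transcription factor of the same lining, overlapped between groups, at 4.04 to 5.52 and 5.25 to 7.64. How much mesothelium each lobe carried, and its part in these differences, was not tested.

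Dcn encodes decorin, a small leucine-rich proteoglycan that binds collagen fibrils. It was among the most abundant members, reading 14.61, 14.48 and 14.69 in wild type, 15.80, 16.71 and 15.87 in Foxn1 mutants and 16.37, 15.92 and 16.17 in Tbx1 mutants. The wild type arrays lay close together and 1.11 below the nearest mutant array, for a pooled difference of 1.55 ± 0.23 (SE; limma adjusted p = 0.41). Lum, the lumican gene and its neighbour on chromosome 10, read 14.45 to 14.90 in wild type and 15.21 to 16.51 in the mutants, with Foxn1 mutant replicate 2 highest. Epyc, the epiphycan gene of the same cluster of genes, read 3.98, 4.77 and 6.06 against 6.13 to 7.30. Kera, which lies between Lum and Epyc, was near background and differed by -0.37 in the opposite direction, and Ccer1 beyond Epyc differed by 0.13. Fmod, the fibromodulin gene on chromosome 1, read 3.06 to 3.36 against 3.51 to 4.85, above background on 2 mutant arrays and on no wild type array.

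Of 14 small leucine-rich proteoglycans, 11 were higher in the pooled mutants (median 0.52, against 53% and 0.02 over all clusters), 4 of them on one side (1.45% of all clusters), and 0 passed limma. Of 11 fibrillar collagens, 9 were higher (median 0.56) and Col3a1 was on one side. Col3a1, a collagen of pliable connective tissue, read 10.53, 10.72 and 11.11 in wild type and 11.53 to 12.53 in the mutants, a difference of 1.06 ± 0.26 (SE). Col1a1 (1.15 ± 0.36) and Col1a2 (1.07 ± 0.36) overlapped by small margins, since Foxn1 mutant replicate 3 lay among the wild type arrays. The cartilage collagen Col2a1 was at background with a difference of -0.42. Among 25 genes that process matrix, 23 were higher (median 0.54). Loxl1, which crosslinks elastin, read 7.31 to 8.23 against 8.56 to 10.42. Of 36 matrix glycoproteins, 26 were higher (median 0.40), with Emilin1 above and Matn4 below on one side, and of 20 other collagens 16 were higher (median 0.26) with none on one side. In each of these 5 lists 0 members passed limma. Foxn1 mutant replicate 2, an array with Prss16 at background, had the highest mean of the fibrillar collagens (7.19) and of the proteoglycans (7.03). Without it and wild type replicate 1 the medians of those lists were 0.40 and 0.43. The date codes, A, B and C in turn, gave fibrillar collagen medians of 0.83, 0.15 and 0.70, and proteoglycan medians of 0.79, 0.40 and 0.63. Matrix glycoproteins had 0.73, 0.33 and 0.11, the matrix processing genes 0.62, 0.59 and 0.36, and the other collagens 0.51, 0.08 and 0.05.

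**Figure D2:**
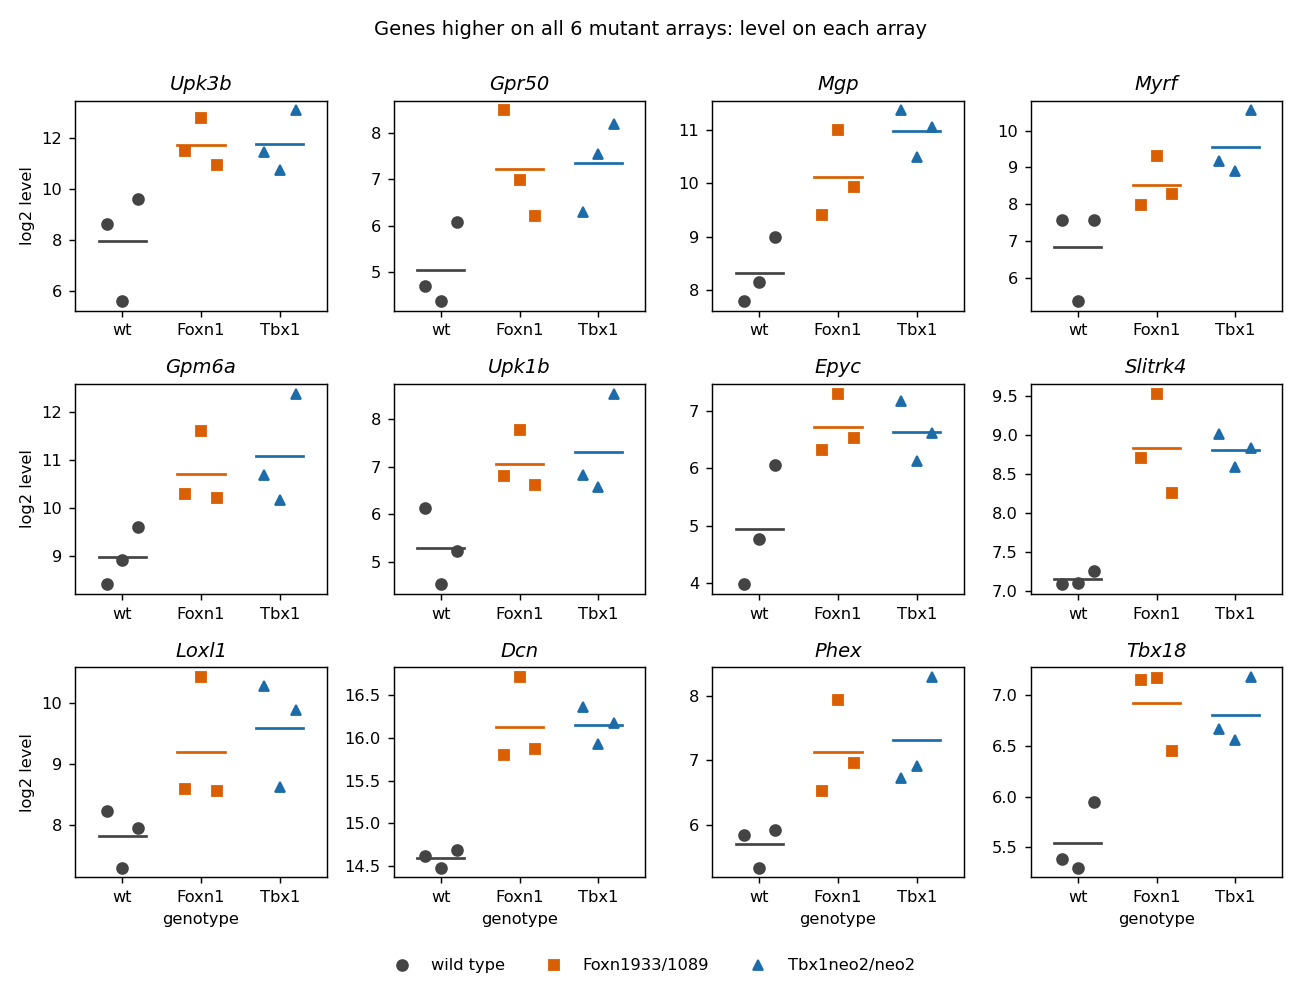
Each panel shows a gene's log2 level (y axis) on the 3 arrays of each genotype (x axis), with a line at the genotype mean, for the 12 named higher members. No mutant array reaches down to a wild type array. The wild type arrays of Dcn and Slitrk4 lie close together, while those of Upk3b spread from 5.62 to 9.63.

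Mgp, matrix Gla protein, is a secreted inhibitor of calcification that also binds bone morphogenetic proteins. It read 7.80, 8.15 and 8.996 in wild type, against 9.41, 11.00 and 9.93 in Foxn1 mutants and 11.36, 10.49 and 11.05 in Tbx1 mutants. The pooled difference was 2.23 ± 0.39 (SE). Tbx18, a T-box factor of mesenchyme around epithelial tubes and of the epicardium, read 5.38, 5.30 and 5.95 in wild type and 6.44 to 7.17 in the mutants. It was the only member among 15 measured T-box genes, of which 8 were higher (median 0.01). In the wider list of mesenchyme and neural crest genes 23 of 31 were higher (median 0.20), with only Tbx18 on one side, and its median was 0.07 without the 2 arrays low in Prss16. Myrf, a membrane-bound transcription factor known from myelination, read 5.37 to 7.57 against 7.97 to 10.55.

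Several secreted signals and receptors were members with smaller differences, chosen for mention after their values had been seen. Bambi, a decoy receptor that dampens TGF-beta family signals, read 6.997 to 8.08 in wild type and 8.18 to 9.44 in the mutants. Gdf6, a ligand of that family, read 4.07 to 5.06 against 5.16 to 6.47. Ltbp4, which anchors latent TGF-beta in the matrix, read 5.93 to 7.06 against 7.16 to 8.33. As a list, however, the TGF-beta and BMP pathway was near balance, with 21 of 37 genes higher (median 0.12, and -0.19 within code C). Sema3c, a guidance signal of neural crest and outflow tract, read 8.57 to 9.13 against 9.38 to 11.43. Pdgfd, a platelet-derived growth factor, read 4.65 to 5.91 against 5.97 to 7.20. Adam12, a membrane protease of mesenchyme, read 7.15 to 8.44 against 8.68 to 9.74. Axl, a receptor tyrosine kinase that binds Gas6, read 11.11 to 11.75 against 12.14 to 13.46. In 5 of these 7 genes the highest array was Foxn1 mutant replicate 2. Of 50 Wnt pathway genes, 35 were higher (median 0.13, and -0.003 within code C), with Fzd7 and Wnt9a on one side.

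Of the 12 leading genes 3 lay on the X chromosome, where the imbalance in Y-linked RNA bears on the reading. Slitrk4, a leucine-rich transmembrane protein of synapses, read 7.09, 7.11 and 7.26 in wild type and 8.26 to 9.53 in the mutants. Tbx1 mutant replicate 1, the mutant array with Uty, read 9.01, second highest of the 6. Phex, a membrane peptidase that controls phosphate and bone mineral, read 5.33 to 5.92 against 6.51 to 8.29, with 6.72 on that array. Gpr50, an orphan receptor related to the melatonin receptors, read 4.36 to 6.07 against 6.21 to 8.50, with 6.30 on that array. Of all higher members 18 were X-linked (6.45%, against 4.39% of all clusters), and of the lower members 5 (2.65%). Among the 9 X-linked higher members with a mean level at or above the median, that array was lowest of the mutants only for Eif2s3x, a translation factor gene known to escape X inactivation, at 11.60 against 11.98 to 12.75 on the other 5. By the selection that array lay above all wild type arrays for each of these genes, so its rank among the mutants cannot decide the part of sex. The part of sex in the X-linked members was not tested. The 4 higher members on Y never exceeded 3.87, which is below background.

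RefSeq promoter windows (build GRCm38.p6) were on hand for 16 of the 24 genes named by size, and for 180 of 239 higher and 137 of 176 lower members with a symbol. None was on hand for Dcn, Lum, Mgp or Slitrk4. The 250 bases before the annotated start are shown for 3 leading higher members, the collagen gene Col3a1 and 2 leading lower members, to show the sequence in front of the genes described. Letters in capitals mark ACGTG, the core of the hypoxia response element, or GACGC, the core bound by FOXN1, on either strand. AGGTGTGA, the T-box half-site, was also searched on both strands, and the motifs do not share letters in these windows. Epyc has 2 windows, of which the upstream is printed.
Upk3b (chr5:136038246-136038495, plus strand): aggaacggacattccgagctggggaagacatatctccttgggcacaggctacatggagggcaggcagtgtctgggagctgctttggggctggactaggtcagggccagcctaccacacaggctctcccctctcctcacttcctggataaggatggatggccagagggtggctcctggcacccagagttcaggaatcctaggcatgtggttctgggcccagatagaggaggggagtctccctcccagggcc
Tbx18 (chr9:87731261-87731510, minus strand): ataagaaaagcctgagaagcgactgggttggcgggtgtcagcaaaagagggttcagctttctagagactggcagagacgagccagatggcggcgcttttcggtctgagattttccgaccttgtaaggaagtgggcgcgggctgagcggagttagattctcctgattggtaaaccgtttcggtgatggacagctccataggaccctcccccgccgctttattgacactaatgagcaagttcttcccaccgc
Epyc (chr10:97643818-97644067, plus strand): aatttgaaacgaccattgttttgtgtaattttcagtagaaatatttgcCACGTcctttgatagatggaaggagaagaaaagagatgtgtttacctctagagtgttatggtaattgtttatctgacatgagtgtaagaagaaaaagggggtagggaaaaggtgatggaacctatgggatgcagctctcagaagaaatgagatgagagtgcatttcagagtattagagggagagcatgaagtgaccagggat
Col3a1 (chr1:45311288-45311537, plus strand): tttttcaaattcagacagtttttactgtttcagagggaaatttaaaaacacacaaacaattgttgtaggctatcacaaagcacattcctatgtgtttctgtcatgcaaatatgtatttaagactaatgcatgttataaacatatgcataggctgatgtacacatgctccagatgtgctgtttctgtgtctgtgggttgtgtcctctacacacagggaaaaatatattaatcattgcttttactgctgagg
Egln3 (chr12:54203875-54204124, minus strand): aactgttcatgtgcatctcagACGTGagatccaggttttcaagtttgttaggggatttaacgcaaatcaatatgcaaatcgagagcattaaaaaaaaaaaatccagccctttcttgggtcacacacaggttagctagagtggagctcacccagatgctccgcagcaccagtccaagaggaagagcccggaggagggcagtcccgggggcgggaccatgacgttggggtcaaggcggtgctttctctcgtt
Cyfip2 (chr11:46312359-46312608, minus strand): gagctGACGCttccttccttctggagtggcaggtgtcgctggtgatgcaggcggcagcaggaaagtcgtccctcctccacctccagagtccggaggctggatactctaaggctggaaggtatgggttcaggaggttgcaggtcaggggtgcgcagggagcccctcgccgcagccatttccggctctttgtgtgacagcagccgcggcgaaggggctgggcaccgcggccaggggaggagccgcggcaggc
Upk3b, Tbx18 and Col3a1 hold none of the motifs, Epyc and Egln3 hold ACGTG once each, and Cyfip2 holds GACGC once. Over all 32851 windows, 22.6% held GACGC, 16.6% held ACGTG and 1.12% held AGGTGTGA. Windows of the higher members held them at 24.9%, 16.1% and 0.922%, and those of the lower members at 31.7%, 16.9% and 0.529%. A match is a match of letters only.

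**Figure D3:**
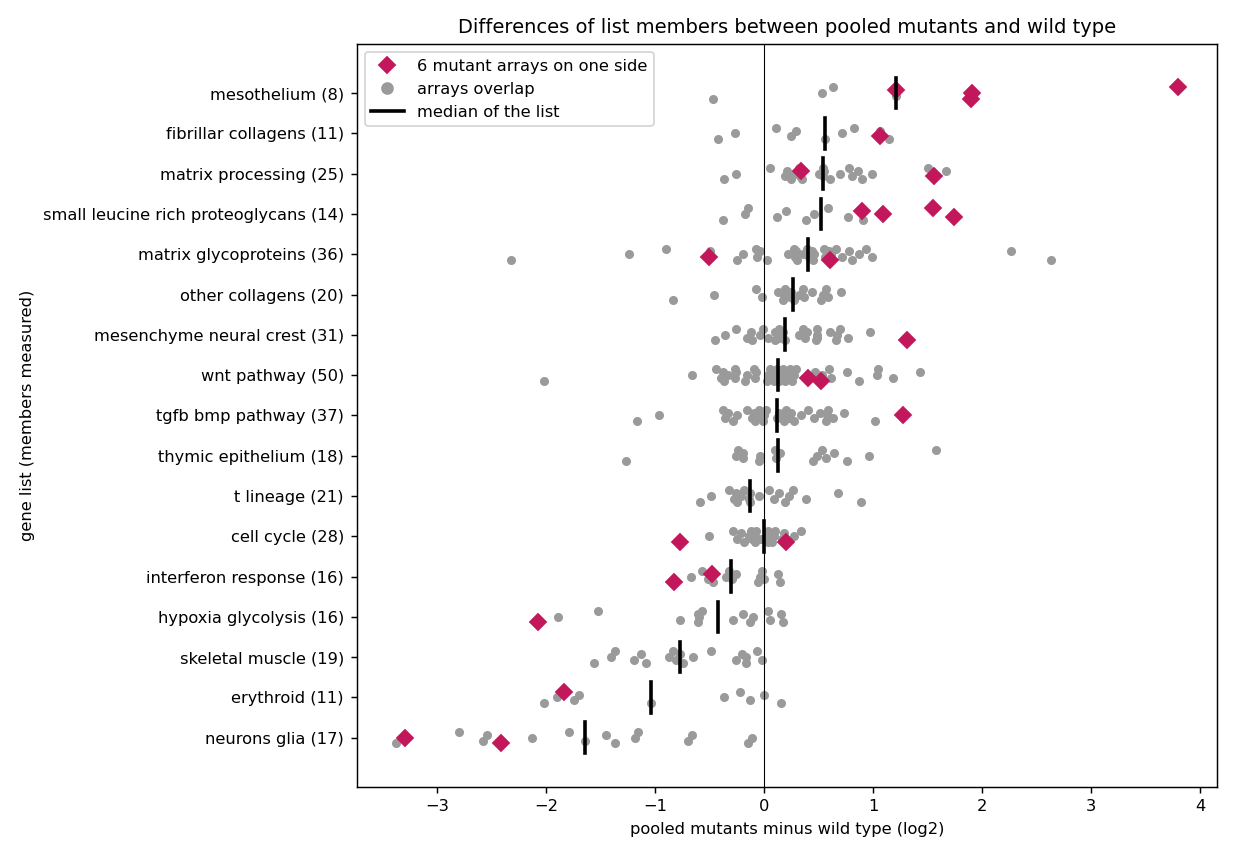
Each point is a gene of the list named on the y axis, placed by its difference between pooled mutants and wild type in log2 units (x axis). Diamonds are genes whose 6 mutant arrays lie on one side of wild type, and black lines are list medians. Matrix lists have medians of 0.26 to 0.56 with points on both sides of 0, and the erythroid and neuronal lists lie almost wholly below 0.

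The 12 lower members with the largest differences and a level above background ran from -3.03 to -1.12, with SEs of 0.21 to 1.08 and limma adjusted p-values of 0.55 to 1.00. Their differences were less even over arrays than those of the higher genes. Without the 2 arrays low in Prss16 they ran from -4.20 to -0.39. Within the date codes they ran from -2.73 to -0.49 (A), -6.93 to -0.31 (B) and -5.87 to -0.65 (C).

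Alas2, the red cell enzyme that starts heme synthesis, read 14.74, 13.34 and 14.42 in wild type, against 12.38, 12.79 and 12.13 in Foxn1 mutants and 13.06, 11.41 and 12.22 in Tbx1 mutants. The pooled difference was -1.83 ± 0.40 (SE; limma adjusted p = 0.75). Mkrn1, a ubiquitin ligase, had the smallest SE of the 12, at 12.58 to 13.26 in wild type and 11.48 to 12.13 in the mutants (-1.12 ± 0.21). Of 11 measured erythroid genes, 10 were lower (median -1.03), with Alas2 alone on one side and 0 passing limma. Embryonic globins were among them, with Hba-x at -1.90 ± 0.67 and Hbb-bh1 at -2.01 ± 0.96, while the very abundant Hbb-y differed by -0.37 ± 0.18. Slc4a1, the anion exchanger of the red cell membrane, read 12.02, 8.69 and 12.20 in wild type and 8.36 to 10.71 in the mutants. The list's mean was 10.07, 8.72 and 10.36 on the wild type arrays and 8.19 to 9.61 on the mutants, so wild type replicate 2 lay among the mutants. The median was -1.50, -0.27 and -0.65 within codes A, B and C. Other lower members with functions in heme or red cells were named after their values had been seen, so they add no weight to the list. Hmox1, which degrades heme, read 7.10 to 7.39 against 5.46 to 6.86, Slc48a1, a heme transporter, 9.06 to 9.34 against 8.37 to 8.91, and Ube2o, a ubiquitin enzyme of maturing red cells, 8.41 to 9.60 against 7.36 to 8.27. How much blood each sample held was not tested.

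Egln3, a prolyl hydroxylase that marks hypoxia-inducible factor for decay and is itself induced by low oxygen, read 12.20, 9.51 and 10.27 in wild type, against 9.11, 6.80 and 9.09 in Foxn1 mutants and 8.30, 9.29 and 8.94 in Tbx1 mutants. The pooled difference was -2.08 ± 0.66 (SE), and -0.92 without the 2 arrays low in Prss16, its highest and lowest arrays. Of 16 hypoxia and glycolysis genes, 12 were lower (median -0.42), with Adm at -1.89 ± 0.56 and Ndrg1 at -1.52 ± 0.52, and Ldha, Aldoa, Pdk1 and Pgk1 between 0.04 and 0.17. The list's median was -1.42 within code A, -0.24 within B and 0.46 within C. No member passed limma.

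High values on 1 wild type array, replicate 1 or replicate 2, carried several of the other lower genes. Nefm, a neurofilament, read 15.64 on wild type replicate 1, 10.43 and 10.24 on the other wild type arrays and 8.74 to 10.02 on the mutants, and its difference of -2.41 became -0.44 without the 2 arrays low in Prss16. All 17 measured neuronal and glial genes were lower (median -1.64), but the list's mean was 10.69 on wild type replicate 1, 5.04 and 5.19 on the other wild type arrays and 4.97 to 5.83 on the mutants, and its median was 0.08 without those 2 arrays. Dbh, the enzyme that makes noradrenaline, owed the size of its difference to this array, at 12.04 against 3.47 and 3.31 in wild type and 2.80 to 3.15 in the mutants. Sytl4, a granule-docking protein, read 10.96 there and under 4.60 on every other array. Gcnt2, which branches the I blood group antigen, read 10.35 there, 8.56 and 8.33 on the other wild type arrays and 7.52 to 8.26 on the mutants. Tspan1, an epithelial tetraspanin with the largest difference of the 12 (-3.03 ± 1.08), read 10.94 on wild type replicate 2, 5.44 and 5.58 on the others and 3.70 to 5.38 on the mutants. That array was also high in skeletal muscle, with a list mean of 9.05 against 5.96 and 5.42 in wild type and 5.04 to 6.74 in the mutants. All 19 muscle genes were lower (median -0.77), none on one side, and the median was 0.84 within code A and 0.13 within code C, which lack that array.

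**Figure D4:**
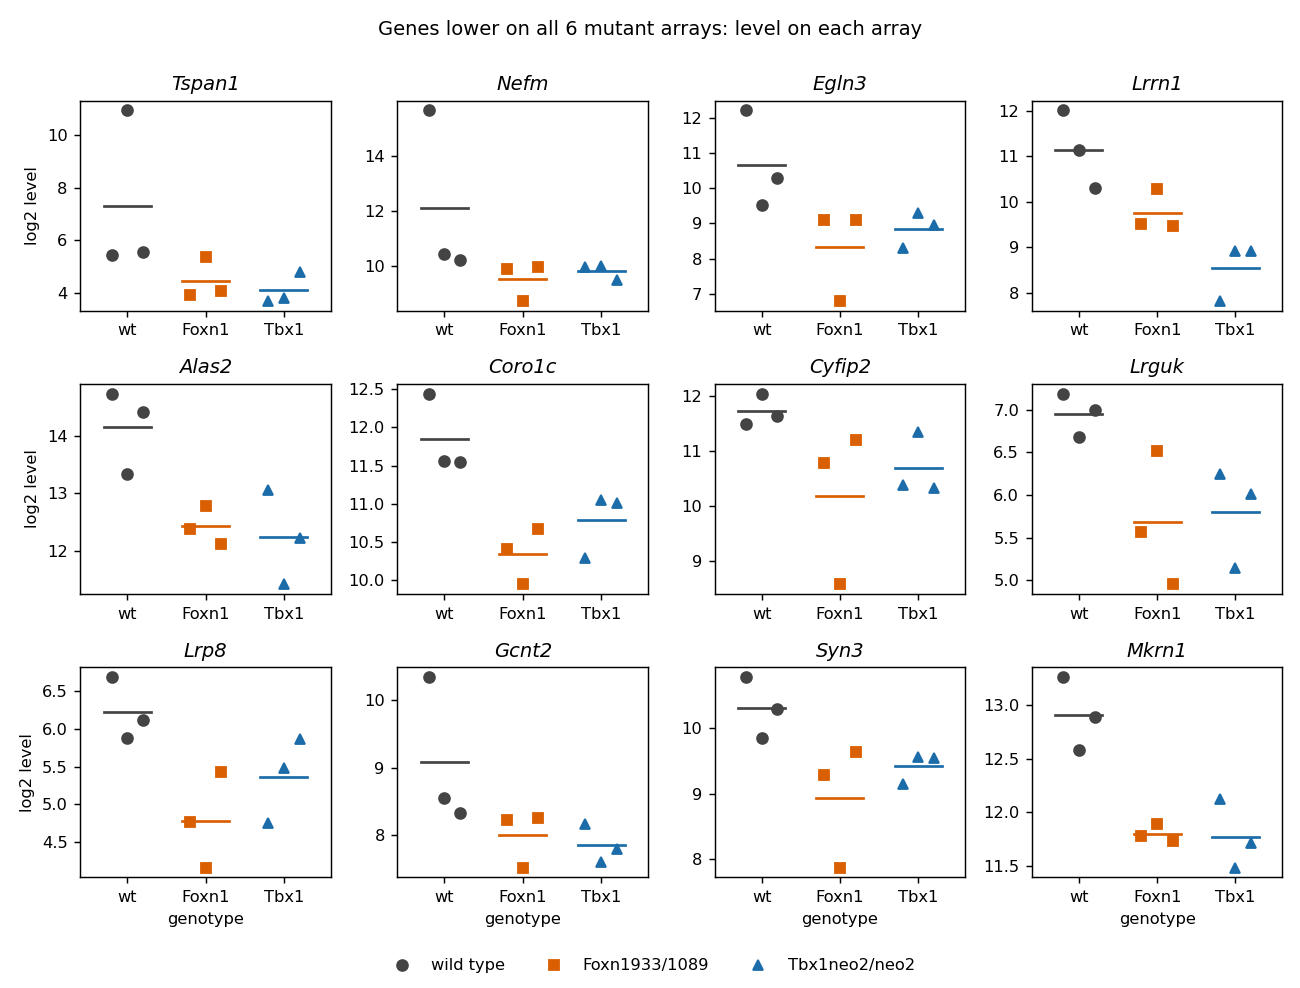
Each panel shows a gene's log2 level (y axis) on the 3 arrays of each genotype (x axis), with a line at the genotype mean, for the 12 named lower members. Tspan1, Nefm and Gcnt2 each have 1 high wild type array, whereas the wild type arrays of Mkrn1 and Lrguk lie together.

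Lrrn1, a leucine-rich neuronal membrane protein, read 12.01, 11.14 and 10.29 in wild type, 9.46 to 10.28 with mutant Foxn1 and 7.83 to 8.92 with mutant Tbx1. Its genotypes differed by -1.40 and -2.59, near the edge of the size rule. Coro1c, an actin-binding coronin, read 11.55 to 12.44 against 9.95 to 11.05 (-1.28 ± 0.29). Cyfip2, a subunit of the WAVE complex that drives actin branching, read 11.49 to 12.03 against 10.33 to 11.34 on 5 mutant arrays and 8.58 on Foxn1 mutant replicate 2. Syn3, a synapsin, showed the same low array, at 7.87 against 9.15 to 9.64 on the other mutants and 9.85 to 10.78 in wild type. Lrp8, a reelin receptor, read 5.88 to 6.69 against 4.16 to 5.86, a separation of 0.02. Lrguk read 6.68 to 7.19 against 4.95 to 6.52. A4galt, which makes the P blood group glycolipid, and Tagap, a GTPase-activating protein of T cells, were lower and widely separated but dim. A4galt read 5.97, 4.33 and 4.14 against 2.59 to 3.44, and Tagap read 5.32, 5.40 and 5.39 against 3.67 to 4.62.

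A few members act in cell division, lower ones such as Rrm2 and higher ones such as Ccnd2 (0.72), and the list for it was balanced. Rrm2, the ribonucleotide reductase subunit that limits DNA synthesis, read 8.94 to 9.36 in wild type and 7.44 to 8.63 in the mutants (-0.77 ± 0.26). Cdc25b, a phosphatase that starts mitosis, read 6.61 to 6.95 against 5.95 to 6.39, and Tacc3, a spindle protein, 8.79 to 9.27 against 8.23 to 8.54. These last 2 were chosen after their values had been seen. Of 28 cell cycle genes, 14 were higher and 14 lower (median -0.002), with Ccne1 above and Rrm2 below on one side. Gadd45a, a growth arrest gene induced by p53, read 7.40 to 7.99 against 6.41 to 7.004, and Sesn1, another p53 target, read 6.70 to 7.54 against 7.54 to 8.04 in the opposite direction, and the list of p53 and growth arrest genes had 6 of 15 higher (median -0.02). In the interferon response list 13 of 16 genes were lower (median -0.31). Usp18, which restrains interferon signalling, read 5.11 to 5.56 against 4.01 to 4.87, and Mx2, an antiviral GTPase, was below background. No member of these 3 lists passed limma.

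Genes that define the thymus could hardly become members, since many were low on 1 wild type and 1 mutant array, which so overlapped the other genotype's arrays. The mean of the thymic epithelial list was 6.62 and 6.73 there, against 8.50 to 8.86 elsewhere. Prss16 and Psmb11 were at background on these 2 arrays, but Foxn1 was above it. The lists of thymus genes are therefore given on all 9 arrays and without those 2. Of 18 thymic epithelial genes 11 were higher (median 0.13, and -0.20 without the 2 arrays), and of 21 T lineage genes 12 were lower (median -0.13, and -0.43 without them). The medullary epithelial list had 5 of 13 higher (median -0.04, and -0.22 without them), and antigen presentation 6 of 13 (-0.01, and -0.49). Pharyngeal pouch patterning had 7 of 15 higher (-0.0003, and -0.09), and epithelial identity 11 of 25 (-0.01, and -0.25). Without the 2 arrays the medians of these 6 lists were thus all below 0, and on all 9 arrays only that of thymic epithelium was above it. Within code C, which holds wild type replicate 1, the median was 1.39 for thymic epithelium and 0.72 for the T lineage, against -0.87 and -0.36 within code A and -0.28 and -0.41 within code B. Cldn7 was the only gene of these 6 lists on one side, and it differed in size, by -0.85 in Foxn1 mutants and -2.14 in Tbx1 mutants. The parathyroid list read lower in all 5 measured genes, with a median of -0.81 in Foxn1 mutants and -5.75 in Tbx1 mutants, and no member. Its median was -4.32 within code A, 0.08 within code B, which holds no Tbx1 mutant, and -7.22 within code C, which holds no Foxn1 mutant. Among leukocyte genes, 13 of 21 were higher, with a median of 0.17 that turned to -0.20 without the 2 arrays and was -1.08, 0.20 and 0.62 within codes A, B and C. C1qc, a complement gene of macrophages, read 4.45 to 4.87 against 5.14 to 5.72. No gene of these 8 lists passed limma in the pooled comparison.

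**Figure D5:**
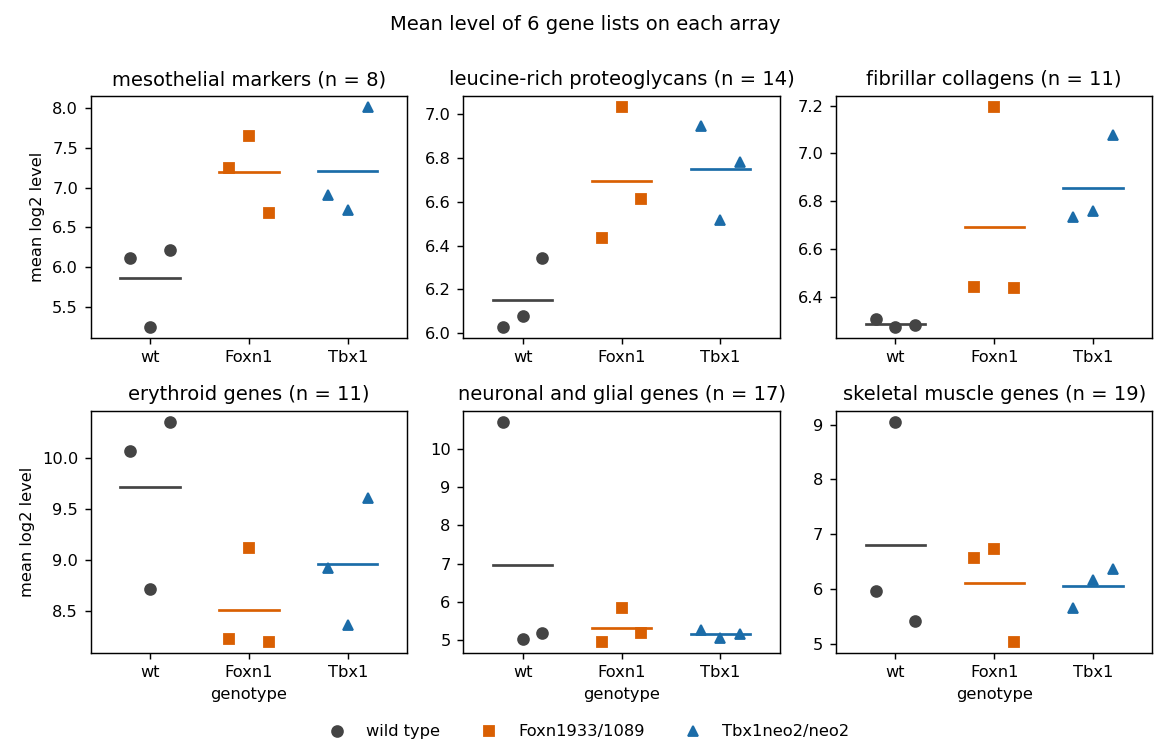
Each panel shows the mean log2 level of a gene list (y axis) on the 3 arrays of each genotype (x axis), with a line at the genotype mean. The mesothelial, proteoglycan and collagen means of the mutants lie above all wild type arrays, the erythroid means overlap through wild type replicate 2, and 1 wild type array each carries the neuronal (10.69) and the muscle (9.05) signal.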

How the data were processed

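The values are the authors' deposited log2 values of Clariom S mouse arrays, used as given. Software, normalization and build are not named by any label or header. Amplified RNA was copied to cDNA, fragmented and labelled with Affymetrix kits, per the labels' protocols. Control features (6640) and 64 unmapped features were left out, leaving 22142 transcript clusters, of which 19527 had 1 gene symbol. Identical values on all arrays were shared by 142 clusters with another.

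A linear model with 3 genotypes was fitted with limma 3.58.1 (R 4.3.3) to all 9 arrays. The contrast was the mean of both mutant genotypes minus wild type, two-sided, with Benjamini-Hochberg adjustment over all clusters and a threshold of 0.05. The functions were tested on simulated data. Genes with several clusters are shown by their brightest cluster. The named genes were Foxn1, Tbx1, the 12 members per direction with the largest difference, a mean level at or above the median and a higher side above background, and members of 41 gene lists on one side or of lowest p. The members and lists were chosen with earlier results of these data known. Further genes were picked with values in view: Uty, Kdm5d, Prss16, Psmb11, Pth, Chga, those with a wide separation, the list neighbours, signals, heme and cell division genes, and the lists of mesothelial and imprinted genes. Alternatives were quantile normalization, median centring, filters on dim clusters, chromosomes and repeated clusters, date code blocks, array weights, another moderation, 2 groups, other margins and leaving out arrays. Motifs were counted in Python 3.11.15 and figures drawn with matplotlib 3.10.9.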

Additional observations from a re-analysis of the deposited data

Results flagged for a closer look

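Among the 6 mutant arrays, a gap test (Dixon) was applied to 90 named genes, and 11 had an array that stood apart. Chance gives about 1 in 20 for independent values of 1 normal population. The 11 cannot be set against that rate, since the arrays hold 2 genotypes and many genes were picked by their values. Foxn1 mutant replicate 2 was low in Cyfip2 (8.58, others 10.33 to 11.34), Syn3 (7.87, others 9.15 to 9.64) and Rrm2 (7.44, others 8.38 to 8.63). The same array was high in Lum (16.51, others 15.21 to 15.61) and in Has2, a hyaluronan synthase (6.86, others 5.83 to 6.10). Tbx1 mutant replicate 1 was high in the Y-linked genes Uty (8.47, others 2.47 to 3.71) and Kdm5d (6.96, others 2.52 to 3.55). Tbx1 mutant replicate 2 was high in Wnt9a (5.64, others 5.07 to 5.21) and in Usp9y (3.82, others 2.99 to 3.15), where all values are below background. Tbx1 mutant replicate 3 was high in Alx1, a homeobox gene of head mesenchyme (7.43, others 6.06 to 6.47). Foxn1 mutant replicate 1 was high in Msln (7.39, others 4.36 to 4.70).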

How the results depend on the processing

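No alternative gave a call between pooled mutants and wild type except leaving out an array (0 to 4 called). Between the Foxn1 and Tbx1 mutants, 2 clusters were called on the 7 arrays other than wild type replicate 1 and Foxn1 mutant replicate 2, 4 with array weights, 2 at a threshold of 0.1, and 0 to 3 with single arrays left out. Clusters above and below on one side numbered 524 and 123 with median centring (462 and 116 of similar size), 142 and 121 with a mean at or above the median (132 and 111), 145 and 123 with a mean above every negative-control median (135 and 113), 1126 and 1194 on those 7 arrays (869 and 960) and 9 and 3 with a separation of 0.5 (9 and 2). A size ratio of 0.75 left 171 and 117. With single arrays left out, the counts ran from 399 to 938 above and from 265 to 918 below (of similar size, 338 to 819 and 233 to 798), since fewer arrays overlap more rarely. Quantile normalization, the filter at the lower quartile, leaving out X and Y or repeated clusters, and similarity within 0.5 log2 units kept these counts within 1.5 times. Of the 468 members, 362 remained under quantile normalization, 395 under median centring and 413 on the 7 arrays. On the 7 arrays the separation of a member could not be lost, so only the size ratio could remove it.

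The difference of Foxn1 turned to 0.016 with median centring and ran from -0.84 to 0.45 with single arrays left out. That of Tbx1 turned to 0.0021 with median centring, 0.35 on the 7 arrays and 0.19 with array weights, and ran from -0.37 to 0.43 with single arrays left out. For the 24 genes named by size, 0 of 500 alternative values reversed and 0 passed the threshold. By the selection of these genes, leaving out or weighting arrays, or leaving out clusters, could not reverse a value. The count of reversals was thus mostly fixed in advance. Differences of clusters below background are limited by the signal. The labels give the genotypes no shared replicate numbers to pair arrays by. Blocking by date code, fixed and then random, 0 clusters were called between pooled mutants and wild type by limma (lowest adjusted p = 0.0715 and 0.219, where all other settings with every array gave 0.198 to 0.484).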

Other observations

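Imprinted genes, expressed from 1 parental copy and many of them growth regulators of the embryo, were listed after values had been seen, so the counts only describe the genes picked. Of the 13 measured genes, 12 were higher (median 0.31, against 53% and 0.02 over all clusters), Zim1 and Sgce were on one side (1.45% of all clusters), and 0 passed limma. Zim1 read 10.14 to 10.78 in wild type and 10.78 to 12.12 in the mutants, a separation under 0.01, and Sgce, a sarcoglycan, read 7.87 to 8.74 against 8.74 to 9.85, also separated by under 0.01. Plagl1, a zinc finger factor of this group, read 15.35 to 15.56 against 15.44 to 17.02, and Peg3 read 11.37 to 12.14 against 12.03 to 13.69. The cluster annotated as Mir675, a microRNA gene within the imprinted H19 transcript, read 17.35, 17.69 and 17.44 in wild type and 17.81 to 18.08 in the mutants. The list's mean was 13.01 on Foxn1 mutant replicate 2, which had Prss16 at background, 11.71 to 12.39 on the other mutants and 11.67 to 12.11 in wild type. The median was 0.21 without that array and wild type replicate 1, and what that array's part was beyond this was not tested.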
